A study of Mus musculus with 15 samples.

Results

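The comparison described here sets the 5 libraries numbered 2 against the 5 libraries numbered 1, 1 of each number in each of 5 groups of mouse blood cell progenitors. The number is the last digit of the sample title, so the members were chosen by label and not by any measured value. They are 10 of the 15 libraries of the series, and the 5 libraries numbered 3 were left out. The cells were hematopoietic progenitors from fetal liver, immortalized with Hoxb8, a transcription factor that keeps myeloid progenitors dividing, and grown with estradiol. The wild-type line (hi-Ddx41+/+) received an empty retrovirus, the group WT empty. The heterozygous line (hi-Ddx41+/-) received the empty retrovirus, the retrovirus with wild-type DDX41, or the retrovirus with DDX41 carrying a substitution found in human disease, the groups Het empty, Het DDX41, Het G173R and Het R525H. All groups were infected for 2 days and sorted for GFP, and each genotype was 1 line. The labels do not say what the number stands for, nor whether libraries of a group came from separate cultures. The p-values therefore measure the spread between these libraries, which may be technical, and a culture, a day and a sequencing run cannot be told apart.

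A library number carries no treatment, so a difference between numbers is one between libraries of the same group. Total RNA libraries depleted of ribosomal RNA hold several kinds of transcript beside mRNAs with a poly(A) tail: leftover ribosomal RNA, transcripts of the mitochondrial genome, and histone mRNAs. Histone genes of the replication-dependent kind are made in S phase, and their mRNAs end in a stem-loop in place of a poly(A) tail. The mitochondrial genome is read into long transcripts that are cut into separate mRNAs and ribosomal RNAs. Ddx41, the gene deleted in 1 copy in the heterozygous line, codes for a DEAD-box RNA helicase.

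Library totals ran from 27743681 to 49145873 counts for number 1 and from 31599985 to 46362170 for number 2. The fragment length implied by the tables averaged 252 bases ± 7.4 (SD, n = 5) for number 1 and 258 ± 7.38 (SD, n = 5) for number 2. Ddx41 stood at 58.4 CPM (the count scaled to the library total) in WT empty 1 and 62.9 CPM in WT empty 2, and between 29.3 and 36.5 CPM in the 8 heterozygous libraries. Ddx41 was 0.09 log2 units higher in number 2 (SE 0.04, 95% interval -0.0003 to 0.18, higher in 5 of 5 pairs), which did not pass edgeR's quasi-likelihood test (Benjamini-Hochberg adjusted p = 0.34).

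Of 14426 genes tested with the group as a block, 1 passed at an adjusted p under 0.05, or 0.00693%. At an unadjusted p under 0.05, 2135 genes (14.8%) differed, 1128 higher in number 2 (7.82%) and 1007 lower (6.98%). The count of calls depended strongly on the method. DESeq2 called 141 genes (0.977%), 63 higher (0.437%) and 78 lower (0.541%), and gave no adjusted p for 8111 genes. The edgeR fit with no filter on low counts called 526, which over the same 14426 genes was 1.82% in either direction, and limma voom called 0 with 2195 genes at an unadjusted p under 0.05. The no-filter fit shrank the spread of single genes much harder (prior degrees of freedom 39.9 against 6.49), and 1 of its 526 genes failed the filter of the first fit. DESeq2 and the no-filter fit shared 139 genes. The values below are therefore given as levels and differences, with the edgeR adjusted p where a gene is described in full, and no named gene other than Pgk1-rs7 passed that fit.

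The gene that passed, Pgk1-rs7, is a near copy of the glycolysis gene Pgk1. Its expected count was 438.8 in WT empty 2 and 391.4 in Het G173R 2, and below 1 in the other 8 libraries of the comparison. It was also 519.6 in Het G173R 3. The level was thus present or absent by library and did not follow the number in the other 3 pairs. Its reads may belong to Pgk1, since the authors' counting splits reads between matching genes, and the fitted fold change has no use where all libraries numbered 1 round to 0. DESeq2, voom, the fit to all 15 libraries and the fit without the group block did not call it. A further 3 genes among the smallest p-values had the same form. Fam177a had 107.4, 50.02 and 118.4 counts in libraries 2 of Het empty, Het G173R and Het R525H and 0 in the other 7 libraries. Gm2436 and Gm6565, both predicted genes, were likewise at 0 after rounding in all libraries of 1 number and above 0 in 3 and 2 of the other. In all, 28 tested genes had 0 counts in 1 library of a pair and at least 30 in its partner, and 22 of these were predicted genes, pseudogenes or numbered copies. The zeros lay in number 1 for 14 of them, in number 2 for 12 and in both for 2.

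**Figure D1:**
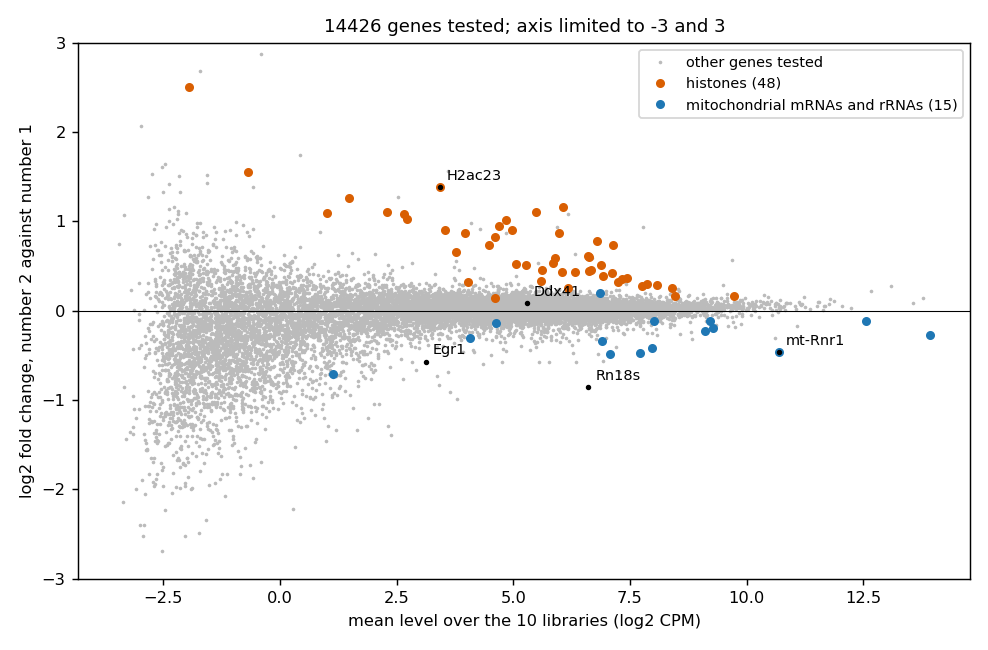
Log2 fold change of number 2 against number 1 (y axis) by the mean level over the 10 libraries (x axis, log2 CPM) for the 14426 genes tested, each point 1 gene, with 9 genes outside the y axis limits of -3 and 3. The 48 histone genes (orange) lie above 0, and 14 of the 15 mitochondrial mRNAs and ribosomal RNAs (blue) lie below it.

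Mitochondrial ribosomal RNA was lower in library 2 of each group. The 12S ribosomal RNA of the mitochondrial ribosome, mt-Rnr1, read 1680, 2204, 1887, 1887 and 1887 CPM in WT empty, Het empty, Het DDX41, Het G173R and Het R525H library 1. In library 2 of the same groups it read 1390, 1343, 1465, 1450 and 1271 CPM. All libraries numbered 2 lay below all libraries numbered 1, and the means were 1909 ± 188 (SD, n = 5) and 1384 ± 79.8 (SD, n = 5) CPM. The difference was -0.46 log2 units (SE 0.06, edgeR adjusted p = 0.061), and DESeq2 called it (adjusted p = 0.00026), as did edgeR with upper quartile scaling (adjusted p = 0.044). The 16S RNA mt-Rnr2 ran from 16130 to 17700 CPM in number 1 and from 13670 to 15290 CPM in number 2, again without overlap, a difference of -0.27 log2 units (SE 0.05, edgeR adjusted p = 0.17).

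The mRNAs of the mitochondrial genome, which code for respiratory chain and ATP synthase subunits, were lower too, by differing amounts. Of 13 tested, 12 had a negative log2 fold change, against 46.6% of all genes, 6 were lower in all 5 pairs, against 6.17%, and the median was -0.23 against 0.01 over all genes. The smallest p-values were those of 3 complex I subunits, while the lowest log2 fold change was that of the low-count mt-Nd4l (-0.70, SE 0.30, lower in 3 of 5 pairs). mt-Nd5 ran from 246.8 to 329.6 CPM in number 1 and from 198.5 to 225.9 CPM in number 2, without overlap (-0.42 log2 units, SE 0.07, edgeR adjusted p = 0.11). mt-Nd4 differed by -0.47 and mt-Nd2 by -0.33 log2 units, each lower in 5 of 5 pairs. mt-Nd3 had the 1 positive value, 0.19 log2 units, and was higher in 2 of 5 pairs. The pair medians of the 13 were -0.23 in WT empty, -0.37 in Het empty, -0.14 in Het DDX41, -0.11 in Het G173R and -0.35 in Het R525H. Their median GC content was 37.1% and their median length 784 bases, and the part of either was not tested.

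As a share of all counts, mitochondrial transcripts took 2.86% ± 0.11 (SD, n = 5) in number 1 and 2.38% ± 0.1 (SD, n = 5) in number 2. The ranges, 2.73 to 2.99% and 2.28 to 2.55%, did not overlap. Lower shares in 5 of 5 pairs give an exact sign-flip p of 0.0625 (two-sided), which is the smallest that 5 pairs allow. After adjustment over the 12 library measures tested it was 0.19. Most of the mean difference of -0.480 percentage points lay in mitochondrial ribosomal RNA, at -0.373 points and lower in 5 of 5 pairs. The mitochondrial mRNA share differed by -0.107 points and was lower in 4 of 5 pairs (exact sign-flip permutation test, two-sided p = 0.125). In Het G173R the mRNA share was 0.868% in library 1 and 0.875% in library 2. Of the nuclear genes of the respiratory chain, 35 of 39 had a positive log2 fold change, with a median of 0.04. Their pair medians were 0.20 in WT empty, 0.10 in Het empty, 0.06 in Het G173R, -0.03 in Het DDX41 and -0.05 in Het R525H, and without the WT empty pair 22 of 39 were positive with a median of 0.02. In bulk RNA, fewer mitochondrial transcripts per cell and a lower recovery of them cannot be told apart.

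Cytoplasmic 18S ribosomal RNA, Rn18s, is the RNA that the depletion step removes, and what is counted is the remainder. It read 102.5, 173.4, 96.6, 128.4 and 120.6 CPM in libraries 1 and 69.4, 61.1, 49.5, 114.8 and 56.4 CPM in libraries 2, in the group order above. The difference was -0.86 log2 units (SE 0.15, edgeR adjusted p = 0.17, lower in 5 of 5 pairs). Het G173R 2 stood apart from the other libraries numbered 2, at a level within the range of number 1. Its share of all counts averaged 0.0125% in number 1 and 0.00695% in number 2.

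**Figure D2:**
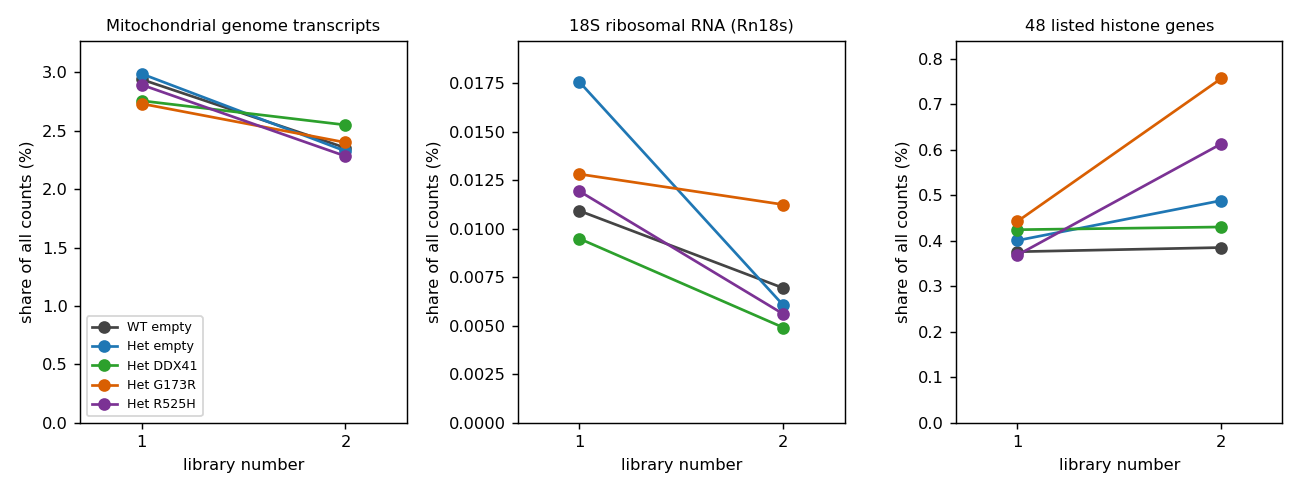
Share of all counts (y axes, percent) taken by mitochondrial genome transcripts, 18S ribosomal RNA and the 48 listed histone genes in libraries 1 and 2 (x axes), each line 1 group. The mitochondrial share is lower in library 2 in 5 of 5 pairs, and the histone share is 0.757% in Het G173R 2 and 0.613% in Het R525H 2 against at most 0.443% in libraries numbered 1.

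Histone mRNAs were higher in number 2, mostly in 3 of the 5 pairs. All 48 histone genes tested from the list had a positive log2 fold change, against 53.4% of all genes, and 13 were higher in all 5 pairs, against 6.92%. The median was 0.57 log2 units against 0.01 over all genes, and 45 of the 48 reached an unadjusted p of 0.05, against 7.82%. None passed edgeR's adjusted threshold. DESeq2 called 4, against 0.437% of all genes, and gave no adjusted p for 16, and the no-filter fit called 45, against 1.82%. The pair medians were 1.29 in Het G173R, 1.15 in Het R525H and 0.43 in Het empty, but 0.02 in Het DDX41 and -0.05 in WT empty. Without the Het G173R pair the median of the 48 was 0.37. The median GC content of the 48 was 58.3% and their median length 527 bases, and the part of either in the difference was not tested.

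The histone classes differed among themselves. The 12 H2A genes had a median of 1.09 log2 units and the 11 H4 genes 0.82, the 9 H3 genes 0.51, the 11 H2B genes 0.37 and the 5 linker histone (H1) genes 0.25. In WT empty the median was below 0 for H2A (-0.15), H3 (-0.09) and H4 (-0.20) and above 0 for H2B (0.23) and H1 (0.17). In Het G173R the H2A median was 1.95 and the H4 median 1.84, against 0.68 for H2B and 0.40 for H1. Of the 13 genes higher in all 5 pairs, 5 were H2B, 3 H2A, 3 H1 and 2 H4, and no H3 gene was among them. Median GC content by class was 64.8% for H2A, 59.5% for H3, 57.8% for H2B, 56.2% for H4 and 54.5% for H1. Many of these genes are near-identical in their coding parts, so reads could be split between them. Values of single genes are therefore less certain than those of a class. A histone gene could also go far the other way in a pair. The H2B gene H2bc24, named after its value was seen, read 40.5 and 0.26 CPM in libraries 1 and 2 of Het empty. H2bc23 read 63.2 and 135 CPM in the same libraries, and the cause was not tested.

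A set of 3 histone genes was among the 10 smallest p-values on the higher side. H2ac23, an H2A gene, read 2.23, 5.33, 8.44, 5.24 and 7.43 CPM in libraries 1 and 7.11, 9.51, 13.1, 26.6 and 22.1 CPM in libraries 2. Each pair was higher in number 2, and the 2 ranges overlapped between 7.11 and 8.44 CPM. The difference was 1.39 log2 units (SE 0.20, edgeR adjusted p = 0.094). H2bc14 ran from 83.8 to 120.6 CPM in number 1 and from 106.7 to 189.9 CPM in number 2 (0.38 log2 units, SE 0.07, edgeR adjusted p = 0.22). H2bc22, which the histone list did not hold, ran from 12.2 to 16.3 CPM in number 1 and from 15.3 to 29.0 CPM in number 2 (0.47 log2 units, SE 0.09, edgeR adjusted p = 0.22). The smallest pair difference of both H2B genes was in Het DDX41, at 0.03 and 0.10 log2 units.

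The 3 genes lie on chromosome 13, and the 120 bases before their RefSeq start sites (GRCm38.p6, all on the plus strand) are shown because histone promoters of the replication-dependent kind share short upstream motifs. Capitals mark CCAAT, searched on both strands, so that it also reads ATTGG. The windows are chr13:21810247-21810366 for H2ac23, chr13:21787368-21787487 for H2bc22 and chr13:21721924-21722043 for H2bc14.
H2ac23: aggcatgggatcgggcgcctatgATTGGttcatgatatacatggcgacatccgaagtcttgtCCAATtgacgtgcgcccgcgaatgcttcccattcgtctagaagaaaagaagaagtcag
H2bc22: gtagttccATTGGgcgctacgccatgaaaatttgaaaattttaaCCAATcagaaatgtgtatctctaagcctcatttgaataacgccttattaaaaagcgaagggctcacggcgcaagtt
H2bc14: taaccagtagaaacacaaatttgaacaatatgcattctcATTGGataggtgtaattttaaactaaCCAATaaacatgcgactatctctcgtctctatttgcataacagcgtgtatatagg

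Each of the 3 windows held CCAAT once on each strand. Of the 44 tested histone genes with a RefSeq promoter, 34 (77.3%) held CCAAT on either strand in the same window, against 22.1% of 27018 promoters. TATAAA, also searched on both strands, was in 34.1% of the 44 and 6.76% of all. These matches describe the letters and show no binding.

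The transcript ends are shown because the stem-loop sets these mRNAs apart from mRNAs with a poly(A) tail. Capitals mark a stem that starts with GG, a TTTC loop and the arm that pairs with the stem in full, in GENCODE M21 transcripts.
H2ac23: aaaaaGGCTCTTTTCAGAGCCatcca
H2bc22: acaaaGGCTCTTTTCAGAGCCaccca
H2bc14: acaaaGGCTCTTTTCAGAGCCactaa

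The 3 capital stretches are the same letter for letter. Such a stem-loop was found in 25 of the 48 histone genes (52.1%) and in 38 of 14379 tested genes with a transcript (0.264%). The median log2 fold change was 0.61 over the 25 with the match and 0.52 over the 23 without, and a transcript model that ends before the stem-loop gives no match. Among the 13 genes with a match outside the list, 8 were histone genes: H2ac18, H2ac19, H2ac7, H2aw, H2bc22, H3c15, H4c17 and H4f16.

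Other abundant RNAs that do not code for protein had no common direction. Of 8 abundant structured noncoding RNAs tested, 5 were positive and 3 negative. Rmrp, the RNA of the RNase MRP complex, under the more abundant of its gene identifiers, was higher in 5 of 5 pairs, from a mean of 138.5 CPM to 302.3 CPM (0.94 log2 units, SE 0.28, edgeR adjusted p = 0.23). Its pair differences were 2.24 in Het G173R, 1.73 in Het R525H and 0.59 in Het empty, and 0.14 and 0.05 in WT empty and Het DDX41. The same 3 pairs had the highest histone medians. Snord3a, the U3 small nucleolar RNA, had few counts, with means of 0.30 and 1.19 CPM.

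Egr1, an immediate early transcription factor that responds to growth factor signalling, was lower in number 2. It read 6.75, 12.9, 12.4, 10.2 and 9.80 CPM in libraries 1 and 4.31, 7.61, 8.65, 7.59 and 6.93 CPM in libraries 2. Each pair was lower, by 0.40 to 0.73 log2 units, and the ranges of the 2 numbers overlapped because WT empty lay below the other groups in both. The fitted difference was -0.57 log2 units (SE 0.08, edgeR adjusted p = 0.061). The immediate early list as a whole had no common direction, with 11 of 24 genes positive, 13 negative and a median of -0.04. Jund, another immediate early transcription factor, had a difference of 0.49 log2 units (SE 0.16) and was higher in 3 of 5 pairs, by 1.02 in Het G173R and 0.97 in Het R525H.

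Jmjd1c, a member of the JmjC histone demethylase family, differed by similar amounts in the 5 pairs. It read 227.8, 211.5, 189.6, 190.6 and 188.3 CPM in libraries 1 and 195.5, 180.8, 171.2, 163.9 and 165.0 CPM in libraries 2, and each pair differed by -0.15 to -0.23 log2 units (fitted -0.20, SE 0.03, edgeR adjusted p = 0.11). DESeq2 called it (adjusted p = 0.0001). Zfp871, a zinc finger gene, ran from 98.9 to 120.3 CPM in number 1 and from 85.5 to 94.3 CPM in number 2, without overlap (-0.26 log2 units, SE 0.04).

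On the higher side, 4 further genes were higher in all 5 pairs by modest amounts. Mmp12, the macrophage elastase, read 323.1 and 394.9 CPM in WT empty and between 44.6 and 85.6 CPM in the heterozygous libraries, and its difference between numbers was 0.22 log2 units (SE 0.04). Chst12, a chondroitin sulfotransferase, averaged 25.2 and 29.9 CPM (0.24 log2 units, SE 0.05). Isyna1, which makes inositol phosphate from glucose 6-phosphate, averaged 141.9 and 167.4 CPM (0.23 log2 units, SE 0.04). Cactin averaged 42.5 and 51.2 CPM (0.26 log2 units, SE 0.05). The edgeR adjusted p of these 4 genes lay between 0.22 and 0.23, and DESeq2 called all 4.

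**Figure D3:**
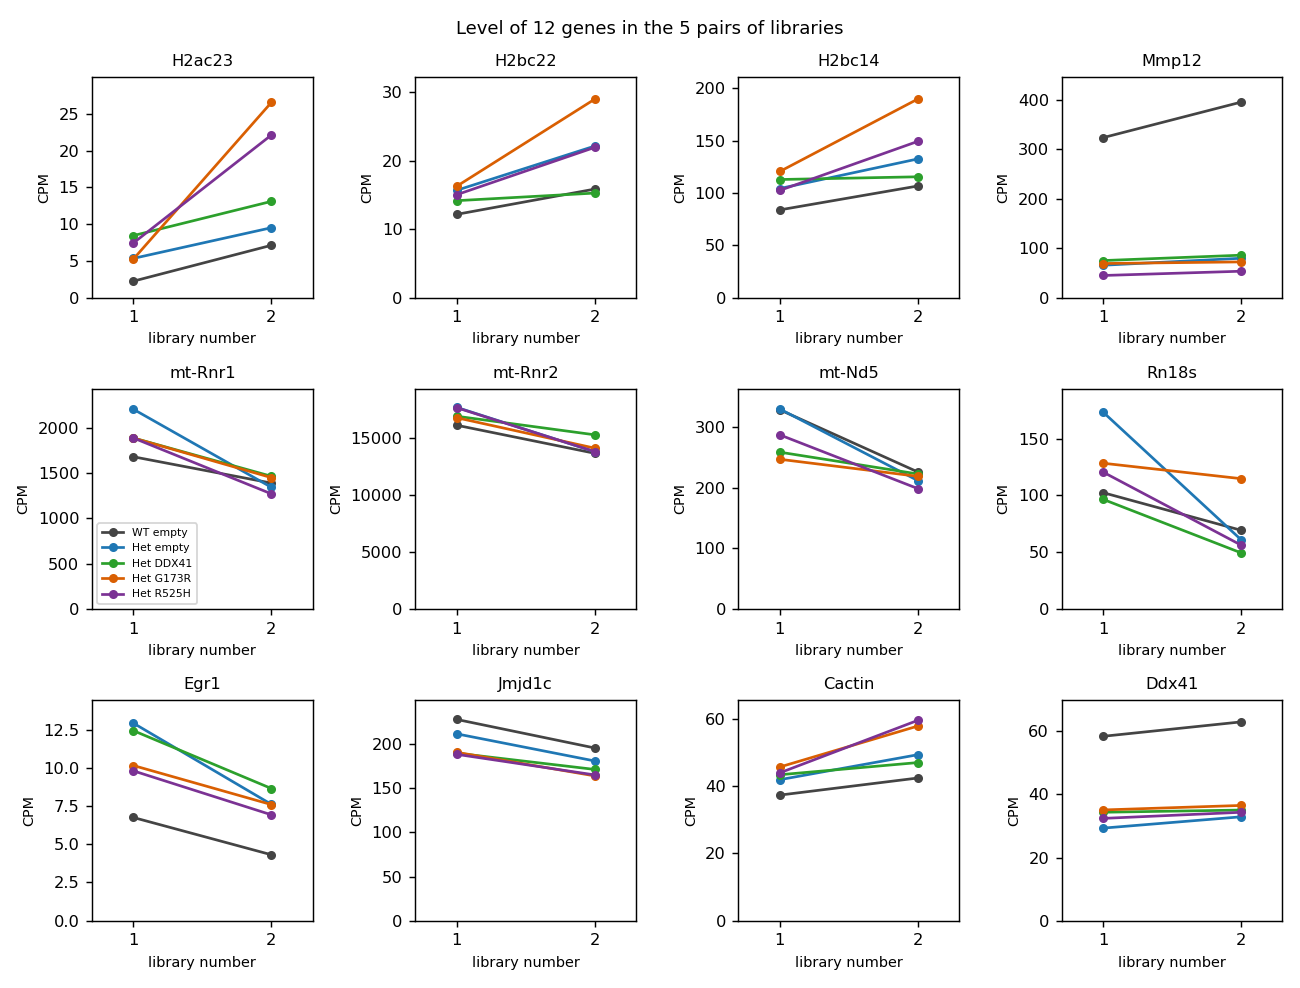
CPM (y axes, from 0) of 12 genes in libraries 1 and 2 (x axes), each line 1 group. The lines run up in all 5 pairs for H2ac23, H2bc22, H2bc14, Mmp12, Cactin and Ddx41 and down in all 5 for mt-Rnr1, mt-Rnr2, mt-Nd5, Rn18s, Egr1 and Jmjd1c, and the slope of H2ac23 is steepest in Het G173R and Het R525H.

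Across genes of at least 5 CPM, the difference followed transcript length and GC content. The shortest of 5 equal classes (1875 genes, median 1067 bases) had a median of 0.06 log2 units with 82.2% positive, and the longest (1875 genes, median 5231 bases) a median of -0.03 with 33% positive. The class lowest in GC (median 40.95%) had a median of -0.02 with 40.1% positive, and the highest class (median 57.3%) 0.09 with 85.9% positive. Spearman's rho across genes was -0.42 with length (9373 genes) and 0.47 with GC (9360 genes), and genes are not independent replicates. Both trends were present together: short genes of high GC had a median of 0.10 and long genes of low GC -0.04, with 3 classes of each. By pair, length rho was -0.41 in Het empty, -0.35 in WT empty, -0.29 in Het G173R, -0.12 in Het R525H and -0.015 in Het DDX41. GC rho was 0.40 in Het G173R, 0.39 in Het R525H, 0.24 in WT empty, 0.22 in Het empty and 0.06 in Het DDX41.

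**Figure D4:**
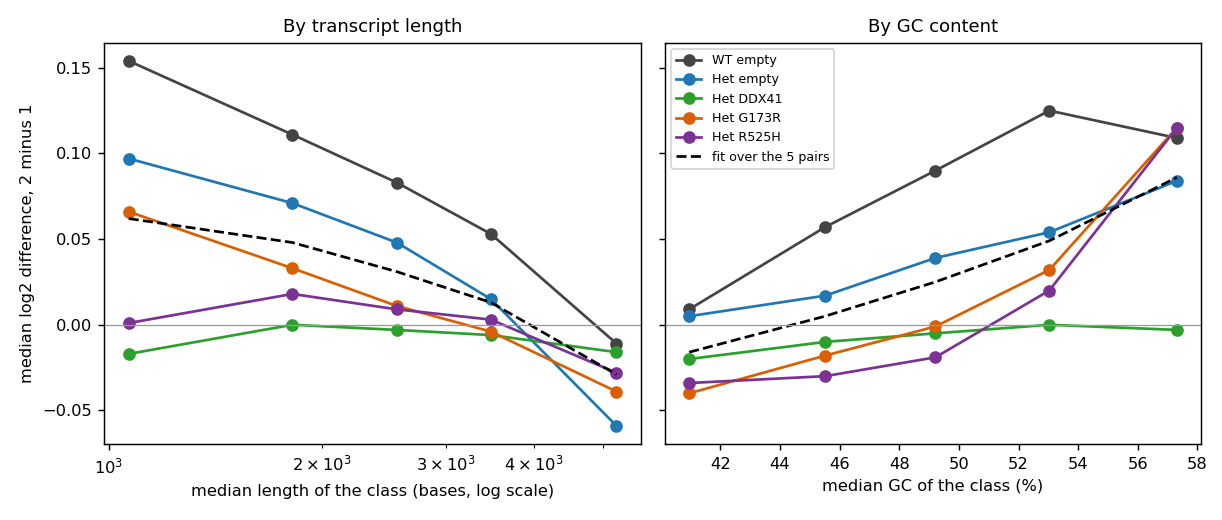
Median log2 difference of number 2 minus number 1 (y axis) for 5 equal classes of the genes of at least 5 CPM by transcript length (left, bases on a log axis) and by GC content (right, percent), each solid line 1 pair and the dashed line the fit over the 5 pairs. The dashed line runs from 0.06 to -0.03 with length and from -0.02 to 0.09 with GC, and the Het DDX41 line stays near 0 in both.

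The genes that DESeq2 called had the same lengths at the extremes. The 63 called higher had a median length of 1354 bases and the 78 called lower 6467 bases, against 2335 bases over all genes tested. The 63 held 7 of the 79 listed ribosomal protein genes, and the 78 held 6 of the 15 mitochondrial transcripts tested. Of all 14426 genes, 0.437% and 0.541% were called in those directions. DESeq2 gave no adjusted p for 8111 of the 14426, but gave one for each listed ribosomal protein gene, so these shares are not like for like.

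Ribosomal protein genes, whose transcripts are short, were slightly higher in number 2, mostly in WT empty and Het empty. Genes that host small nucleolar RNAs, also short (median 810 bases), had 7 of 17 positive and a median of -0.02. Their pair median was -0.34 in WT empty and between 0.00 and 0.10 in the heterozygous pairs. Of the ribosomal protein genes, 44 of 46 of the large subunit and 31 of 33 of the small subunit had a positive log2 fold change, with medians of 0.08 and 0.07. Rpl8 differed by 0.18 log2 units (SE 0.04) and was higher in 5 of 5 pairs, and Rps10 by 0.22 (SE 0.05), higher in 4. The pair medians were 0.21 for both subunits in WT empty and 0.13 in Het empty, and between -0.03 and 0.06 in the other 3 pairs. Without the WT empty pair both medians were 0.03. As a share of counts, ribosomal protein genes took 6.67% in WT empty 1 and between 6.89 and 7.49% in the other 9 libraries. The median length of the 46 was 746 bases and of the 33 was 652 bases, and the part of length was not tested.

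The integrated stress response list, targets of the transcription factor ATF4 that supply amino acids under stress, had 24 of 25 genes positive, against 53.4% of all genes, 8 higher in all 5 pairs, against 6.92%, and a median of 0.13 against 0.01. No member passed edgeR's threshold, and DESeq2 called 2, Atf4 and Phgdh, against 0.437% of all genes called higher. It gave no adjusted p for 10 of the 25. Atf4 differed by 0.13 log2 units (SE 0.03, edgeR adjusted p = 0.23), with pair differences from 0.07 to 0.19. Ddit4, an mTOR inhibitor induced by stress, differed by 0.22 (SE 0.06), higher in 5 of 5 pairs. The list's pair medians were 0.21 in WT empty, 0.10 in Het empty, 0.03 in Het DDX41 and 0.08 in Het G173R and Het R525H. Its median length was 1794 bases and its median GC 53.7%, and the part of either was not tested. Of genes of at least 5 CPM with a GC of 51.03 to 54.99%, 76% were positive, with a median of 0.05. The unfolded protein response list had 17 of 20 positive and a median of 0.06, and its Sdf2l1 and Sec61b, both of the endoplasmic reticulum, differed by 0.18 and 0.20 log2 units in 5 of 5 pairs.

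Genes of cell division and metabolism differed little. DNA replication genes had a median of 0.02 log2 units with 25 of 31 positive, and G2 and mitosis genes a median of 0.02 with 24 of 32 positive. The histone median of 0.57 stood well above both. Mcm2, a subunit of the replicative helicase, differed by 0.12 (SE 0.03), higher in 5 of 5 pairs. Mki67, a long gene that marks dividing cells, differed by -0.12 (SE 0.03), lower in 5 of 5. Glycolysis and hypoxia genes had pair medians of 0.27 in Het empty, 0.16 in WT empty and -0.14 in Het G173R, which a single fold change over the pairs (median 0.06) does not show. The list of DEAD-box helicases, the family of Ddx41, and related DEAH-box helicases had 20 of 28 positive and a median of 0.03. Its smallest p-values were those of the DEAH-box gene Dhx16 (0.16 log2 units) and of Ddx6 (-0.14). DESeq2 called 1 member, Dhx9, named after its value was seen, at -0.20 log2 units in edgeR, the lowest of the list. SR proteins and CLK kinases, which act in splicing, had 19 of 27 negative, and Luc7l2 was lower in 5 of 5 pairs (-0.22, SE 0.05).

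The ranges of summed markers of blood lineages overlapped between the numbers, a comparison that does not use the pairs. Erythroid, megakaryocyte and platelet, eosinophil, MHC class II, and fetal liver and stroma sums were higher in number 2 in 4 of 5 pairs. Stem and progenitor, mast cell and basophil, and early lymphoid sums were higher in 1 of 5 pairs. Primary granule and monocyte and macrophage sums were higher in 3, and later neutrophil sums in 2. Differences in the sums were not tested. Summed primary granule markers ran from 1823 to 3063 CPM in number 1 and from 1911 to 3073 CPM in number 2. Erythroid markers summed to 3847 to 4323 CPM and 3869 to 4554 CPM, and stem and progenitor markers to 4039 to 4748 CPM and 3945 to 4801 CPM. Of the 20 markers of fetal liver and stroma, 10 were at 0 in all 10 libraries. No member of the 11 lineage lists passed the threshold in the main edgeR fit or in DESeq2. The no-filter fit called 1 primary granule member and 1 erythroid member higher, against 1.82% of all genes. The MHC class II list had 8 of 8 positive with a median of 0.20, at summed levels of only 26.5 to 33.8 and 28.7 to 40.0 CPM.

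**Figure D5:**
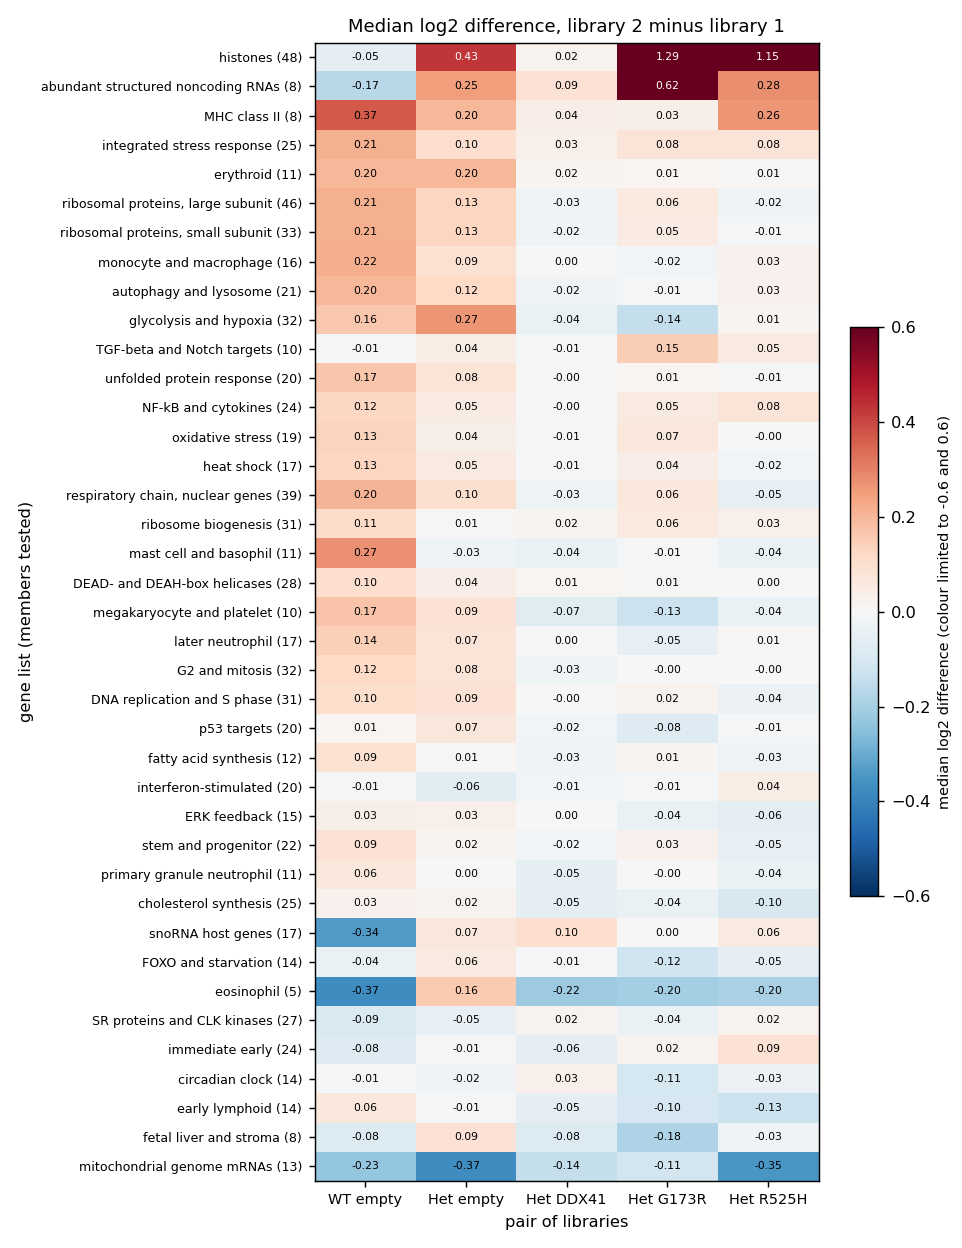
Median log2 difference of library 2 minus library 1 (colour and printed value) for 39 gene lists (rows, with the number of members tested) in each pair (columns). The histone row holds the highest values, 1.29 in Het G173R and 1.15 in Het R525H, the mitochondrial row is negative in all 5 columns, and the Het DDX41 column stays between -0.22 and 0.10.

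The 5 pairs were not alike in size. The SD of the log2 difference over 9373 genes of at least 5 CPM was 0.10 in Het DDX41 and between 0.20 and 0.22 in the other 4. In Het DDX41, 9 genes (0.096%) differed by more than 1.5-fold, against 147 in WT empty, 135 in Het empty, 108 in Het G173R and 87 in Het R525H. Direction differed as well. In WT empty 119 of the 147 were lower in number 2 and in Het empty 105 of the 135, while in Het G173R 89 of the 108 were higher and in Het R525H 73 of the 87.

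Pearson's r of the difference across the 9373 genes was 0.57 between Het G173R and Het R525H and 0.47 between WT empty and Het empty. It was -0.11 between WT empty and Het DDX41, and between 0.003 and 0.34 for the other 7 combinations. The pairs share no library, but the genes share their length and GC content, so these are descriptions with no p. The largest differences did not all follow these directions, and the genes named here were chosen after their values were seen. H2bc24 differed by -5.76 log2 units in Het empty. Entries named Nnt went opposite ways in WT empty, from 23.6 to 1.21 CPM (-3.82) and from 42.7 to 78.8 CPM (0.88). An entry of that name went from 20.2 to 3.39 CPM in Het G173R (-2.41), and from 0.66 to 3.81 CPM in Het DDX41 (1.89). Whether reads moved between entries of this gene was not tested. The following are further examples. Kcnq1ot1, a long RNA antisense to Kcnq1, read 309.8 and 124.7 CPM in libraries 1 and 2 of WT empty and 318.3 and 103.4 CPM in those of Het empty. Whether the counting used strand is not stated, so its reads cannot be told apart from those of Kcnq1. Neat1, the RNA of paraspeckles, read 216.8 and 93.5 CPM in WT empty. In Het G173R, the histone genes H2ac19 and H3c15 read 41.2 and 236.8 CPM and 18.2 and 95.8 CPM.

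The wild-type pair was compared with the 4 heterozygous pairs by an added term in the same fit. The wild-type side is a single pair with no spread of its own, so the test assumes that it varies like the heterozygous pairs. No gene passed at an adjusted p under 0.05 in edgeR, 1663 (11.5%) fell under 0.05 before adjustment, and 34 were called by DESeq2. Without the Het empty pair, edgeR called 47. Among genes of at least 5 CPM, 3 had the same smallest adjusted p of 0.092. Fam220a differed by -1.88 log2 units in WT empty and by 0.15 on average in the heterozygous pairs. F630028O10Rik differed by -1.05 and 0.01. Taf1d, a subunit of the RNA polymerase I factor that also hosts small nucleolar RNAs, differed by -0.58 in WT empty and between -0.03 and 0.18 in the others. Snhg15, another small nucleolar RNA host, differed by -0.61 and 0.02. The list of such host genes had a median of -0.34 in WT empty and between 0.00 and 0.10 in the heterozygous pairs.

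Libraries numbered 3, on the scale of all 15 libraries, did not extend these differences in 1 direction. Median Egr1 was 10.2 CPM in number 1, 7.64 in number 2 and 25.2 in number 3. Median H2ac23 was 5.34, 13.2 and 8.18 CPM, and median mt-Rnr1 was 1897, 1402 and 1399 CPM. Median H2bc14 was 104.6, 133.1 and 75.4 CPM. The histone share in libraries 3 ran from 0.266 to 0.527%. Differences among the 5 groups over the same 10 libraries, tested with no term for the number, were called for 1062 genes (7.36%), and with a term for the number for 1377 (9.55%).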

How the data were processed

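RNA of 15 samples was sequenced after removal of ribosomal RNA with a stranded total RNA kit, per the labels' protocols. The authors deposited 1 gene table per sample from RSEM, per the submitters' processing notes, and its version, the aligner, build and annotation are not given in the sources read. Expected counts in the deposited tables are not normalized and split reads that match several genes. In the 10 libraries used, 6.28 to 6.9% of all 55359 genes, including those without a count, had a value that was not whole. Between 17863 and 19022 genes per library had a count after rounding, so the share among those is higher. TPM, as deposited by the authors, entered no test. Groups and numbers follow the sample titles. The names of 12 files (8 of the 10 used) carry another group's code, but all 15 carry the same number as the title. Ddx41 levels set the wild-type libraries apart (58.4 and 62.9 CPM against 29.3 to 36.5 CPM). They did not tell the heterozygous groups from each other, so the pairs of those groups rest on the titles.

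Expected counts were rounded. Genes passing filterByExpr (14426 of 55359, holding 99.95 to 99.97% of counts) were scaled by TMM (factors 0.98 to 1.06) and fitted in edgeR 4.0.16 under R 4.3.3 (quasi-likelihood, group as block, 4 residual degrees of freedom, Benjamini-Hochberg, threshold 0.05). CPM use the TMM scale, and pair differences are log2(CPM + 0.5). DESeq2 1.42.0 and limma 3.58.1 were alternatives. Library measures used an exact sign-flip permutation test. On simulated data with changes of at least 0.5 log2 units, the fit recovered their median size. Its false share of calls was above the nominal one where the spread varied gene by gene. Smaller changes were not simulated. GC content came from GENCODE M21 transcripts by gene identifier (99.9% of 9373 genes), and promoters from RefSeq.

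The members and the 39 gene lists were chosen with earlier results of these data known. Since 1 gene passed, named genes are Ddx41, the 10 smallest p in each direction, at most 2 per list with the smallest p, and the 5 smallest p by line. Others are said to be chosen later. Depth limits low genes: values below 1 CPM rest on few counts.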

Additional observations from a re-analysis of the deposited data

How the results depend on the processing

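For number 2 against number 1, 1 gene was called, and 1 with RLE scaling, 2 with upper quartile scaling, 0 with the stricter filter, 0 with limma voom, 0 with all 15 libraries, 0 without the group block, 141 with DESeq2 and 526 with no filter on low counts. Leaving out 1 pair at a time gave 0 to 6 calls, with 0 without WT empty or Het G173R and 6 without Het DDX41. Ddx41 and the 10 genes of smallest p in each direction kept their direction in all alternatives that tested them. The other named genes were not followed singly through the alternatives. Outside leave-one-out, 32 of their alternatives newly passed the threshold, from DESeq2, upper quartile scaling or no filter, and 4, all of Pgk1-rs7, no longer passed it. The cause was not tested. The comparison of the wild-type pair with the others gave 0 calls, 34 with DESeq2 and 0 to 47 leaving out 1 heterozygous pair. Differences among the groups were called for 1062 genes, 2720 with no filter and 1377 with the number as a replicate block, 1061 of them shared with the fit without it. The correlation of the 2 minus 1 difference between groups ran from -0.11 to 0.57, not above 0.1 throughout, so the number was not taken to pair the samples, although some groups deviated together. Leaving out 1 pair, the mean difference in genes with a count (-84) ranged from -249.5 without Het R525H to 107.5 without WT empty, with 11.2 without Het empty, and the share of structured noncoding RNA (0.00242 percentage points) from -0.0319 without Het G173R to 0.0562 without WT empty, with -0.0298 without Het R525H. All 48 histones stayed positive in each alternative that tested them, 47 of 47 with the stricter filter, with medians of 0.37 to 0.74. Each alternative kept Het G173R, Het R525H or both, the pairs with the highest medians (1.29 and 1.15). The constant sign therefore does not describe the other pairs, with medians of -0.05 in WT empty and 0.02 in Het DDX41.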
